A study of Homo sapiens with 8 samples.

Results

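Transcripts of 10 genes of the NF-kB system were followed in RNA-seq libraries of NB4 cells, a human cell line of acute promyelocytic leukemia (APL) that carries the PML/RARα fusion protein. The genes were taken by symbol. They are the factor genes NFKB1, NFKB2, REL, RELA and RELB, the inhibitor genes NFKBIA, NFKBIE, NFKBIZ and TNFAIP3, and BCL3. All 10 were listed in all 8 libraries, among 56470 names for each untreated library and 56609 names for each ATRA-treated library, and all 10 passed the low-count filter in each comparison.

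The study set KDM3B knockdown against control cells, each without and with all-trans retinoic acid (ATRA), which drives APL cells toward granulocytes. There were 4 groups of 2 replicates: scramble, shKDM3B, scramble+ATRA and shKDM3B+ATRA. Every group was a stable, puromycin-selected lentiviral line on the pLVX-shRNA2-puro backbone, so the controls carried a vector as well. The labels call the control an empty vector and the study's methods call it a scrambled shRNA, and which of the KDM3B hairpins was sequenced is not given in the sources used here. ATRA was given at 1 µM by the labels, which name 24 and 48 h without tying either time to these libraries; the study's methods write mM for the same dose. Nothing says that replicates were separate cultures, so p-values measure only the spread between these libraries.

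NF-kB factors are dimers that bind DNA at κB sites. RelA, c-Rel and RelB (from RELA, REL and RELB) carry a transactivation domain, whereas NFKB1 and NFKB2 encode the precursors p105 and p100, which are cut to p50 and p52. In resting cells the IκB proteins, among them IκBα (NFKBIA) and IκBε (NFKBIE), hold dimers in the cytoplasm until the IκB kinase (IKK) marks them for breakdown. BCL3 and IκBζ (NFKBIZ) are atypical IκB proteins of the nucleus that bind p50 or p52, and A20 (TNFAIP3) is a ubiquitin-editing enzyme that damps signaling upstream of IKK. Several of these genes are textbook targets of the pathway they belong to, which forms negative feedback loops. NF-kB acts in the survival and the inflammatory responses of myeloid cells.

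The 250 bases before the RefSeq start were searched on both strands for the 10-base κB consensus in 8 members; RELB and NFKBIE had no entry in the promoter table. A match was present in 5 of 8 members (62.5%), compared with 3498 of 35114 promoters of the same length (9.96%). The 5 promoters are shown because they hold the matches, from GRCh38.p14, 5′ to 3′ in the direction of the gene, with each match in capitals. They lie at chr10:102395455-102395704 (NFKB2, plus strand), chr2:60881324-60881573 (REL, plus strand), chr14:35404750-35404999 (NFKBIA, minus strand), chr3:101849264-101849513 (NFKBIZ, plus strand) and chr6:137867009-137867258 (TNFAIP3, plus strand).
NFKB2: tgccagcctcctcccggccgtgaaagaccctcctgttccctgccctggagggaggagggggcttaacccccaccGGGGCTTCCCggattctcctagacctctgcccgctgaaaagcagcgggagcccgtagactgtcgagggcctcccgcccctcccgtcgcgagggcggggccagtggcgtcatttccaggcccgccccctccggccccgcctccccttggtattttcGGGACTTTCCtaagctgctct
REL: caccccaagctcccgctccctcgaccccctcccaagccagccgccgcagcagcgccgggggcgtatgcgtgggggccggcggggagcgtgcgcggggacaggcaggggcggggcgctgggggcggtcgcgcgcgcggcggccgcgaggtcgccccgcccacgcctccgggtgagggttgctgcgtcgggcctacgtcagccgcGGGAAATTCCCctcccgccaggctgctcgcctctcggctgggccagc
NFKBIA: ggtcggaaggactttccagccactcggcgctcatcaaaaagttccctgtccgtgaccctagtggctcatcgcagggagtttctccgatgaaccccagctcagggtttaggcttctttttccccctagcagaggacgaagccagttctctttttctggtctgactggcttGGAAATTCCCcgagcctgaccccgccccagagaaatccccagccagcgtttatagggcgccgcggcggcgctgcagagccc
NFKBIZ: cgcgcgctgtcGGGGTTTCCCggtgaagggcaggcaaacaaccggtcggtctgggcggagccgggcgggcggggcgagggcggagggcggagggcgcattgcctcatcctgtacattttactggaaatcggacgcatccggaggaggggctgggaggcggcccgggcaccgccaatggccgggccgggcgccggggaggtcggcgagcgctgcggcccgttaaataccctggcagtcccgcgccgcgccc
TNFAIP3: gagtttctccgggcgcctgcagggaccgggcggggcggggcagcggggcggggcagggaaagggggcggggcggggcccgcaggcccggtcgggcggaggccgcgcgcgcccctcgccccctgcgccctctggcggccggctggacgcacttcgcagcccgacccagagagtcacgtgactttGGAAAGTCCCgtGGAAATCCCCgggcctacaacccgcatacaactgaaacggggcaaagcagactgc
NFKB2 and TNFAIP3 each held 2 separate matches. The capitals of REL were 2 overlapping matches, from position -47 to -38 on the plus strand and from -46 to -37 on the minus strand. The match of NFKBIA lay from -81 to -72 and that of NFKBIZ from -239 to -230, counted from the base before the start as -1. In NFKB1, RELA and BCL3 these letters were not found in the window. A match is a description of the sequence, and no binding was measured here.

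**Figure D1:**
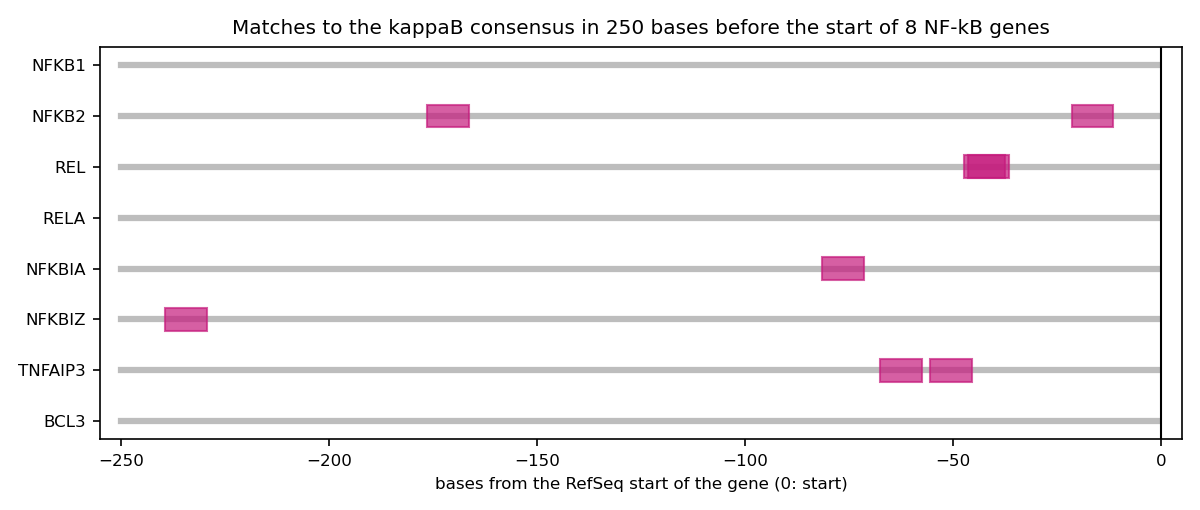
Each gray line is the 250 bases before the RefSeq start of a member, with distance from the start on the x axis, and each colored box is a 10-base match to the κB consensus on either strand. NFKB2 and TNFAIP3 had 2 separate boxes, REL 2 overlapping ones, NFKBIA and NFKBIZ 1 each, and NFKB1, RELA and BCL3 none.

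The libraries held 9708739 to 33017787 pairs assigned to genes. KDM3B, the targeted gene, was at 187 and 188 CPM (counts scaled to a common library size with TMM factors) in scramble cells and at 76.3 and 86.2 CPM in shKDM3B cells. With ATRA it was at 196 and 121 CPM in scramble cells and at 52.5 and 57.4 CPM in shKDM3B cells, so the knockdown libraries were the lower ones in both settings. The share of uniquely aligned pairs that fell outside genes was 8.49% to 9.62% in 5 libraries and 50.0% to 51.45% in scramble+ATRA replicate 2 and both shKDM3B+ATRA libraries. Calls of members that changed when a scramble+ATRA library was left out are named with the member. Of 8 promyelocyte markers, MPO was abundant (616 to 9518 CPM over the 8 libraries), CTSG was at 105 to 149 CPM in the untreated libraries and at 1.71 to 4.11 CPM in the ATRA libraries, and ELANE, AZU1 and PRTN3 stayed at or below 1.47 CPM. CEBPE was at 51.2 to 74.3 CPM without ATRA and 259 to 427 CPM with it, CD33 at 63.0 to 77.5 and 88.0 to 110 CPM, and LYZ at 25.9 to 38.3 and at most 14.4 CPM. The summed level of 9 granulocytic differentiation markers was 485 to 516 CPM in scramble, 358 to 374 CPM in shKDM3B, 8702 to 9636 CPM in scramble+ATRA and 4093 to 4813 CPM in shKDM3B+ATRA. TGM2 made up 5836 and 5142 CPM of that sum in scramble+ATRA and 2268 and 2542 CPM in shKDM3B+ATRA cells. CD38 did not follow the sum, at 116 and 108 CPM in scramble, 136 and 158 CPM in shKDM3B, 459 and 460 CPM in scramble+ATRA and 434 and 549 CPM in shKDM3B+ATRA cells. The hemoglobin genes HBA1, HBA2 and HBB were at 0 in all 8 libraries, as were PF4 and the B-cell gene MS4A1. The part of cell state in the changes of the members was not tested.

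Per kilobase of the Ensembl canonical transcript, RELA and NFKBIA led the 10 genes in scramble cells, at 32.7 ± 5.30 and 32.9 ± 8.96 CPM per kb (mean ± SD, n = 2), and their ranges overlapped. NFKBIE (16.2) and NFKB1 (14.5 CPM per kb) came next and overlapped each other. NFKB2 stood apart from its neighbors at 7.67 CPM per kb. TNFAIP3 (3.24) and RELB (3.16 CPM per kb) overlapped, as did NFKBIZ (1.93) and BCL3 (1.90 CPM per kb). REL was the lowest at 0.745 CPM per kb, apart from BCL3. The most abundant factor transcript was thus that of RelA, and the most abundant inhibitor transcript that of IκBα.

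This order shifted between groups. RELA was first in the other groups, at 33.3, 38.3 and 37.9 CPM per kb in shKDM3B, scramble+ATRA and shKDM3B+ATRA cells. NFKBIA was at 24.9, 19.6 and 14.9 CPM per kb in the same order, and in shKDM3B+ATRA cells it lay below NFKB1 (19.1 CPM per kb) with no overlap. RELB was the lowest gene in shKDM3B+ATRA cells at 0.970 CPM per kb, where its range overlapped that of BCL3 (1.33 CPM per kb). BCL3 was the lowest in shKDM3B cells at 0.584 CPM per kb, apart from REL at 1.46 CPM per kb. Part of this order depended on the length used. With all annotated exons merged as the length, RELA and NFKBIA stayed the first 2 genes in both untreated groups, and NFKBIE lay above NFKB1 in all 4 groups. On that scale NFKBIE was above NFKBIA in both ATRA groups (11.6 against 8.98 in scramble+ATRA and 8.30 against 6.86 CPM per kb in shKDM3B+ATRA cells), and NFKBIA was above NFKB1 (4.94 CPM per kb) in shKDM3B+ATRA cells. In GENCODE v44 (hg38), 33.3% of the exon bases of REL (chr2:60881491-60931612, plus strand) overlapped those of another annotated gene on the same strand. For TNFAIP3 and RELA, 1.47% and 1.89% of exon bases overlapped a gene on the opposite strand, and the strand setting of the counting is not given in the sources used here.

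**Figure D2:**
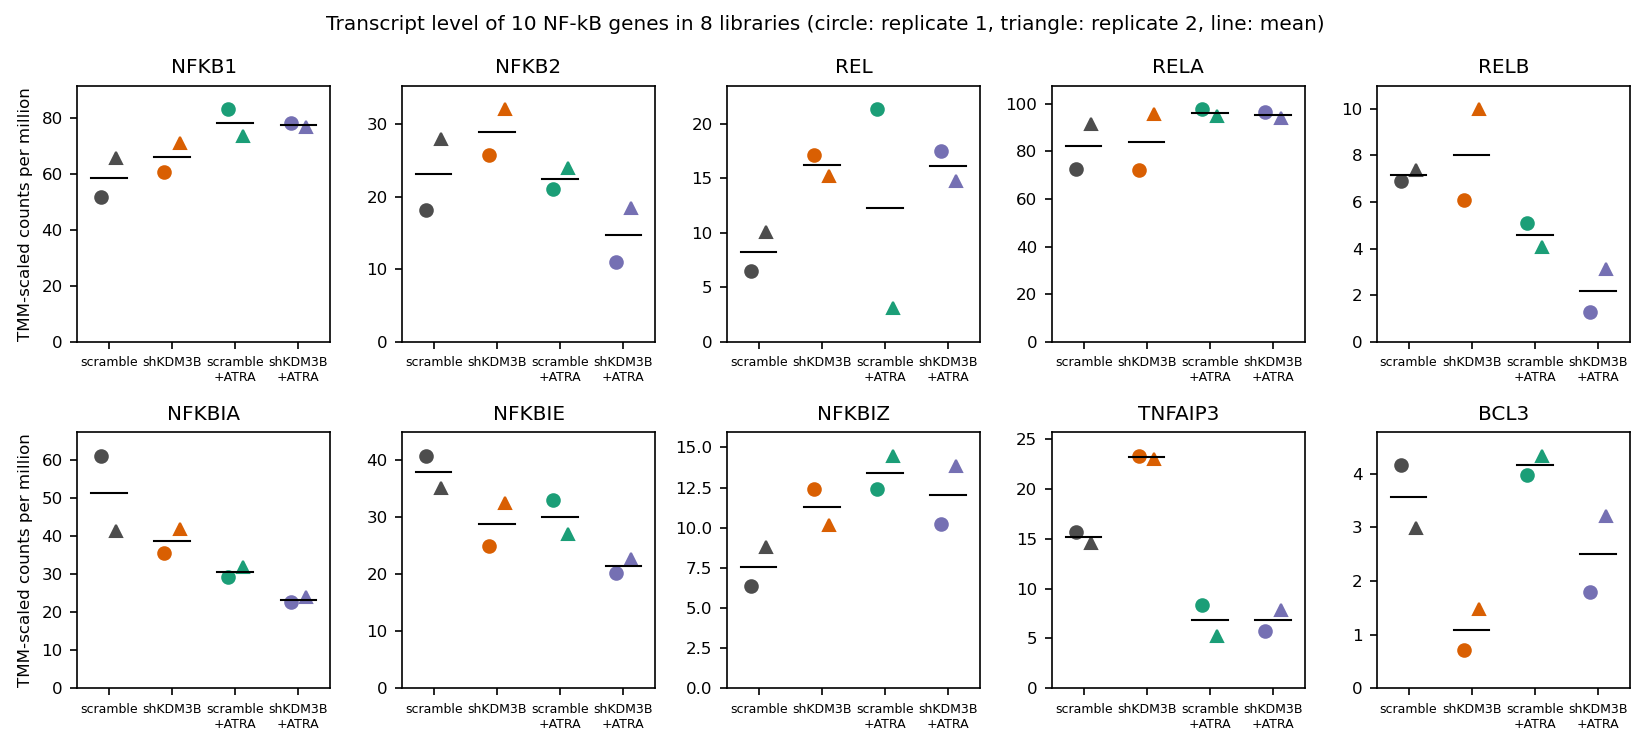
Each panel shows 1 gene with its TMM-scaled CPM on the y axis from 0 and the 4 groups on the x axis; circles are replicate 1, triangles replicate 2 and lines the mean of 2 libraries. REL in scramble+ATRA had the widest gap between replicates on the log2 scale (2.72, from 21.3 to 3.14 CPM), while TNFAIP3 was lower in all 4 ATRA libraries (5.26 to 8.40 CPM) than in the 4 untreated ones (14.6 to 23.3 CPM).

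The next comparison asked what KDM3B knockdown did to these genes in undifferentiated cells. At the limits used in the study, an unadjusted P under 0.05 and a change of at least 1.5-fold, 3 of 10 members passed: REL and TNFAIP3 were upregulated and BCL3 was downregulated in shKDM3B cells. Among all 13855 genes tested, 7.01% passed these limits, 3.48% as higher and 3.53% as lower. No member had a Benjamini-Hochberg adjusted p under 0.05 in edgeR with these settings, a limit met with 1.5-fold by 0.0217% of all genes, nor in DESeq2. REL and BCL3 were under it without the low-count filter (adjusted p = 0.0182 and 0.00222 in edgeR), and REL, TNFAIP3 and BCL3 with the replicate block (0.00319, 0.0197 and 0.00664). Fits without a library left 1 group with a single library, so their adjusted p are not given. The median log2 fold change of the 10 members was 0.17, against 0.00022 over all genes. In bulk RNA, a change in the share of cells that express a gene and a change in its RNA per cell cannot be told apart.

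REL was at 6.53 and 10.0 CPM in scramble cells and at 17.1 and 15.3 CPM in shKDM3B cells. Both knockdown libraries lay above both controls. The fitted change was 1.95-fold (log2 0.96 ± 0.26 SE, adjusted p = 0.221). REL passed in all 4 fits that left out 1 library, with log2 values from 0.69 to 1.31. When all 8 libraries shared an estimate of the spread, the log2 value stayed at 0.96 but its SE was 0.71, and REL no longer passed.

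BCL3 (chr19:44747705-44760044, plus strand) was at 4.17 and 2.98 CPM in scramble cells and at 0.719 and 1.47 CPM in shKDM3B cells, where it rested on 14 and 48 counts. The groups did not overlap. The fitted change was 3.16-fold lower (log2 -1.66 ± 0.43 SE, adjusted p = 0.207). BCL3 was the member that passed in every alternative with these limits, and its log2 value ranged from -2.31 to -1.27 when 1 library was left out.

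TNFAIP3 (chr6:137867214-137883314, plus strand) was at 15.7 and 14.6 CPM in scramble cells and at 23.3 and 23.0 CPM in shKDM3B cells. The replicates of each group were close and the groups lay apart. Its change of 1.53-fold (log2 0.61 ± 0.19 SE, adjusted p = 0.287) sat just above the fold limit. It was lost without shKDM3B replicate 2 (log2 0.61) and without scramble replicate 2 (log2 0.56), and in the fit over 8 libraries.

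The remaining 7 members did not pass. NFKBIZ was at 6.38 and 8.77 CPM in scramble cells and at 12.4 and 10.2 CPM in shKDM3B cells, without overlap, with a log2 value of 0.57 (adjusted p = 0.510). NFKBIE was at 40.7 and 35.0 against 24.8 and 32.5 CPM, also without overlap (log2 -0.40, adjusted p = 0.577). Counting all members, 5 of 10 had groups that did not overlap, compared with 39.1% of 13528 genes. NFKBIA had the same log2 value as NFKBIE, -0.40, but its 2 groups overlapped because scramble replicates were at 61.2 and 41.5 CPM. The log2 values of RELA (0.03), NFKB1 (0.17), RELB (0.18) and NFKB2 (0.32) were within 1.5 times their SE. Without scramble replicate 2, NFKB2 (0.67), NFKBIZ (0.83) and NFKBIA (-0.65) passed as well, and without shKDM3B replicate 2 NFKBIE passed (-0.62).

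**Figure D3:**
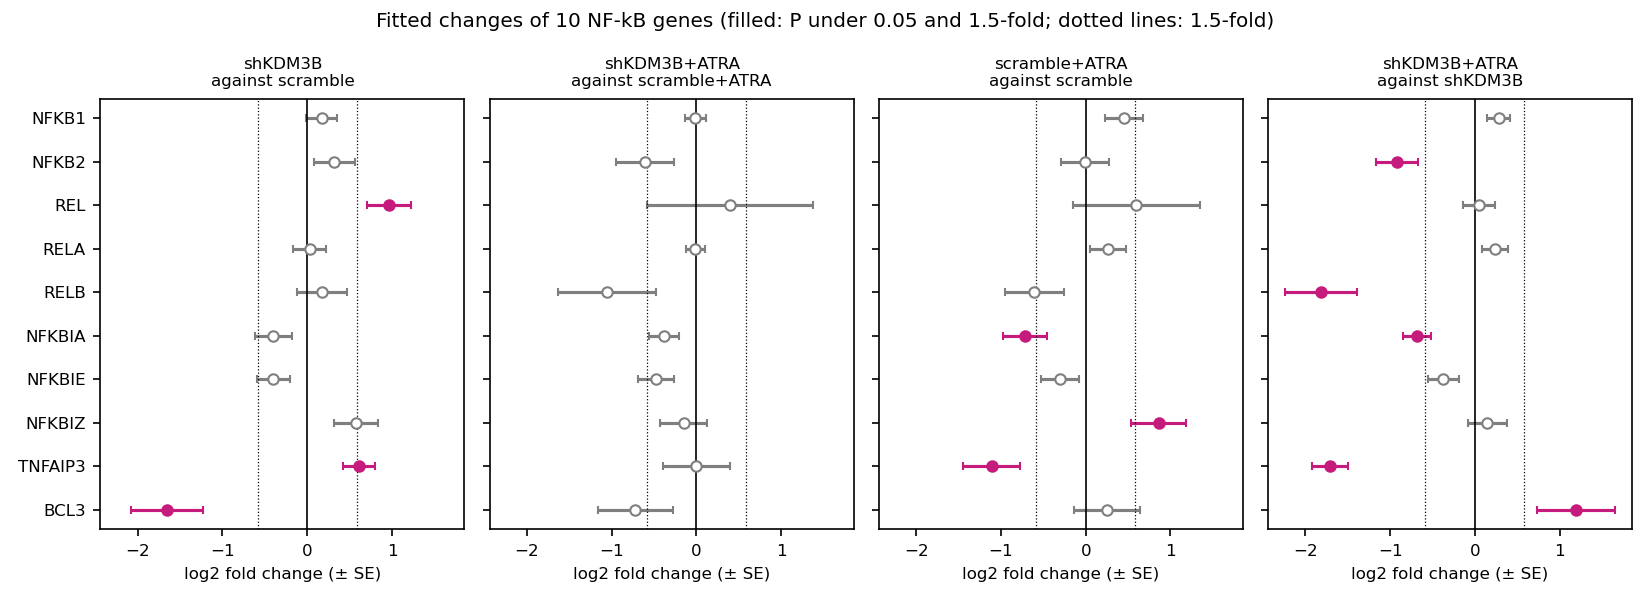
The fitted log2 fold change (x axis, bars: ± SE) is drawn for the 10 members (y axis) in each of the 4 comparisons, with filled points where P was under 0.05 and the change at least 1.5-fold (dotted lines). Filled points numbered 3 for shKDM3B against scramble, 0 for shKDM3B+ATRA against scramble+ATRA, 3 for scramble+ATRA against scramble and 5 for shKDM3B+ATRA against shKDM3B.

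ATRA treatment of scramble cells changed 3 of 10 members at the same limits. NFKBIA and TNFAIP3 fell and NFKBIZ rose, against 25.9% of 12429 genes tested, 15.0% as higher and 10.8% as lower. Over all genes these were 1866 higher and 1347 lower, or 1617 and 1688 with library size alone. The members' share was thus near that of all genes. No member reached an adjusted p under 0.05 in edgeR with these settings, whereas 12.9% of all genes did so with a change of 1.5-fold, 7.84% as higher and 5.06% as lower. TNFAIP3 did so in DESeq2 (adjusted p = 0.0287), and TNFAIP3 and NFKBIA in the edgeR fit over all 8 libraries (0.0342 and 0.0493). Adjusted p of the fits without a library are not given, since 1 group then held a single library.

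NFKBIA (chr14:35401079-35404749, minus strand) was at 61.2 and 41.5 CPM in scramble cells and at 29.2 and 31.8 CPM in scramble+ATRA cells. Both treated libraries lay below both untreated ones. The change was 1.64-fold lower (log2 -0.72 ± 0.26 SE, adjusted p = 0.125). It did not pass without scramble replicate 1 (log2 -0.44) or with the replicate block (log2 -0.69).

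TNFAIP3 was at 15.7 and 14.6 CPM before ATRA and at 8.40 and 5.26 CPM after it. The groups did not overlap. The change was 2.16-fold lower (log2 -1.11 ± 0.34 SE, adjusted p = 0.0793). It did not pass without scramble replicate 1 (log2 -1.09) or without scramble replicate 2 (log2 -1.18), where the size was almost the same. It passed with either scramble+ATRA library alone, at -1.49 without replicate 1 and -0.84 without replicate 2.

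NFKBIZ (chr3:101827991-101861022, plus strand) was at 6.38 and 8.77 CPM before ATRA and at 12.4 and 14.5 CPM after it, a change of 1.81-fold (log2 0.86 ± 0.32 SE, adjusted p = 0.139). All treated values were above all untreated ones. NFKBIZ passed in only 1 of the 4 fits with a library left out, that without scramble+ATRA replicate 1 (without replicate 2 it was at 0.71), with log2 values from 0.62 to 1.10.

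REL could not be given a direction in this comparison. Its level was 6.53 and 10.0 CPM before ATRA, and 21.3 CPM (348 counts) in replicate 1 but 3.14 CPM (34 counts) in replicate 2 after it. The treated libraries thus lay on both sides of the untreated ones. The gap between them was 2.72 on the log2 scale, and 5.99% of genes in the fit had a gap at least as wide in this group. REL passed as lower without replicate 1 (log2 -1.37) and as higher without replicate 2 (log2 1.37). Replicate 2 was the scramble+ATRA library with 50.0% of pairs outside genes, and the part of that share in its REL level was not tested. REL was at 17.5 and 14.8 CPM in the shKDM3B+ATRA libraries, where the share was 51.45% and 51.05%.

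Among the members that did not pass, NFKB1 was at 51.9 and 65.6 CPM before ATRA and at 83.2 and 73.5 CPM after it (log2 0.45 ± 0.22 SE, adjusted p = 0.244). RELB was at 6.88 and 7.38 CPM before and at 5.09 and 4.06 CPM after (log2 -0.60 ± 0.35 SE, adjusted p = 0.317). Neither pair of groups overlapped. The same held for 7 of 10 members in all, 3 as higher and 4 as lower, where 55.2% of 13528 genes had groups that did not overlap, 26.6% as higher and 28.5% as lower. NFKB2 (log2 -0.01), RELA (0.26), BCL3 (0.25) and NFKBIE (-0.30) stayed within 1.5-fold.

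In shKDM3B cells, ATRA lowered the noncanonical pair NFKB2 and RELB as well. Together with NFKBIA and TNFAIP3 they made 4 members that fell, and BCL3 rose, so that 5 of 10 members passed against 42.2% of 12756 genes (24.0% as higher, 18.3% as lower). All 4 decreases had an adjusted p under 0.05, where 40.2% of all genes passed that limit with 1.5-fold and 17.3% did so as lower. As in scramble cells, the number that passed was near the background of all genes. BCL3 did not (adjusted p = 0.0550). Both treated libraries had over 50% of pairs outside genes and both untreated ones under 10%, so for this comparison that share and ATRA cannot be told apart.

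TNFAIP3 was at 23.3 and 23.0 CPM in shKDM3B cells and at 5.79 and 7.84 CPM in shKDM3B+ATRA cells. It fell 3.27-fold (log2 -1.71 ± 0.21 SE, adjusted p = 1.6e-04), the smallest adjusted p among the members. RELB (chr19:45001461-45038192, plus strand) was at 6.06 and 9.97 CPM before ATRA and at 1.26 and 3.12 CPM after it, the latter from 12 and 31 counts. It fell 3.53-fold (log2 -1.82 ± 0.43 SE, adjusted p = 0.00624). NFKB2, whose p100 product holds RelB in the cytoplasm (chr10:102394110-102402524, plus strand), was at 25.7 and 32.1 CPM before and at 11.1 and 18.4 CPM after, a fall of 1.89-fold (log2 -0.92 ± 0.24 SE, adjusted p = 0.0115). None of these 3 genes had overlapping groups. All 3 passed in each of the 4 fits that left out a library, with log2 values from -1.94 to -1.53 for TNFAIP3, from -2.61 to -1.34 for RELB and from -1.33 to -0.62 for NFKB2.

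NFKBIA was at 35.5 and 42.0 CPM in shKDM3B cells and at 22.6 and 23.9 CPM with ATRA, a fall of 1.61-fold (log2 -0.68 ± 0.16 SE, adjusted p = 0.00657). The treated libraries were the lower ones. Without shKDM3B replicate 2 the log2 value was -0.56, under the fold limit. BCL3 went from 0.719 and 1.47 CPM to 1.79 and 3.22 CPM (log2 1.20 ± 0.46 SE, adjusted p = 0.0550). It did not pass without shKDM3B replicate 1 (0.77), without shKDM3B+ATRA replicate 2 (0.72) or in DESeq2. NFKB1 (0.28), RELA (0.23), NFKBIZ (0.15), REL (0.05) and NFKBIE (-0.37) did not pass on the log2 scale, and NFKBIE did so without shKDM3B replicate 1 (-0.60). Groups did not overlap for 7 of 10 members, 2 as higher and 5 as lower, against 75.9% of 13528 genes (37.8% as higher, 38.1% as lower).

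The comparison of the 2 treated groups asked what the knockdown did under ATRA. No member passed in edgeR, none had an unadjusted P under 0.05, and DESeq2 gave 0 as well, where 6.79% of 14281 genes passed (2.42% as higher, 4.37% as lower). The log2 values of 9 of 10 members were below 0, with a median of -0.27 against 0.03 over all genes. With library size alone as the scale, NFKB1, RELA and TNFAIP3 turned to values just above 0. The largest values had wide errors. RELB was at 5.09 and 4.06 CPM in scramble+ATRA cells and at 1.26 and 3.12 CPM in shKDM3B+ATRA cells (log2 -1.06 ± 0.58 SE, adjusted p = 0.603).

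NFKB2 was at 21.0 and 24.0 CPM in scramble+ATRA cells and at 11.1 and 18.4 CPM in shKDM3B+ATRA cells (log2 -0.61 ± 0.34 SE, adjusted p = 0.607). NFKBIE was at 32.9 and 26.9 against 20.2 and 22.6 CPM (log2 -0.48 ± 0.21 SE, adjusted p = 0.550). NFKBIA was at 29.2 and 31.8 against 22.6 and 23.9 CPM (log2 -0.38 ± 0.17 SE, adjusted p = 0.553). In these genes and in RELB and BCL3 the knockdown libraries were the lower ones without overlap, 5 of 10 members. Of 13528 genes, 48.8% had groups that did not overlap, 25.4% as lower. RELA was nearly equal in the 4 libraries, from 94.0 to 97.8 CPM, and NFKB1 had a log2 value of -0.01.

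The calls in this comparison moved with the scramble+ATRA library used. With 1 such library left, the spread came from the shKDM3B+ATRA pair alone. Of pairs, 9.36% fell outside genes in replicate 1, 50.02% in replicate 2, and 51.45% and 51.05% in the shKDM3B+ATRA libraries. Without replicate 2, that share and knockdown thus cannot be told apart. Without replicate 1, REL (log2 2.37) passed as higher and NFKB2 (-0.69) as lower. In the fit without replicate 2, RELB (-1.20) and NFKBIE (-0.62) passed as lower and REL was at -0.40. TNFAIP3 had a log2 value of 0.39 and -0.30 in these fits, and NFKB1 of 0.09 and -0.10. NFKBIA and BCL3 were below 0 in both, at -0.44 and -0.33 and at -0.77 and -0.66. Leaving out a shKDM3B+ATRA library gave no call, but moved the sizes widely, from -1.84 to -0.55 for RELB, from -1.20 to -0.36 for BCL3 and from -1.02 to -0.28 for NFKB2.

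**Figure D4:**
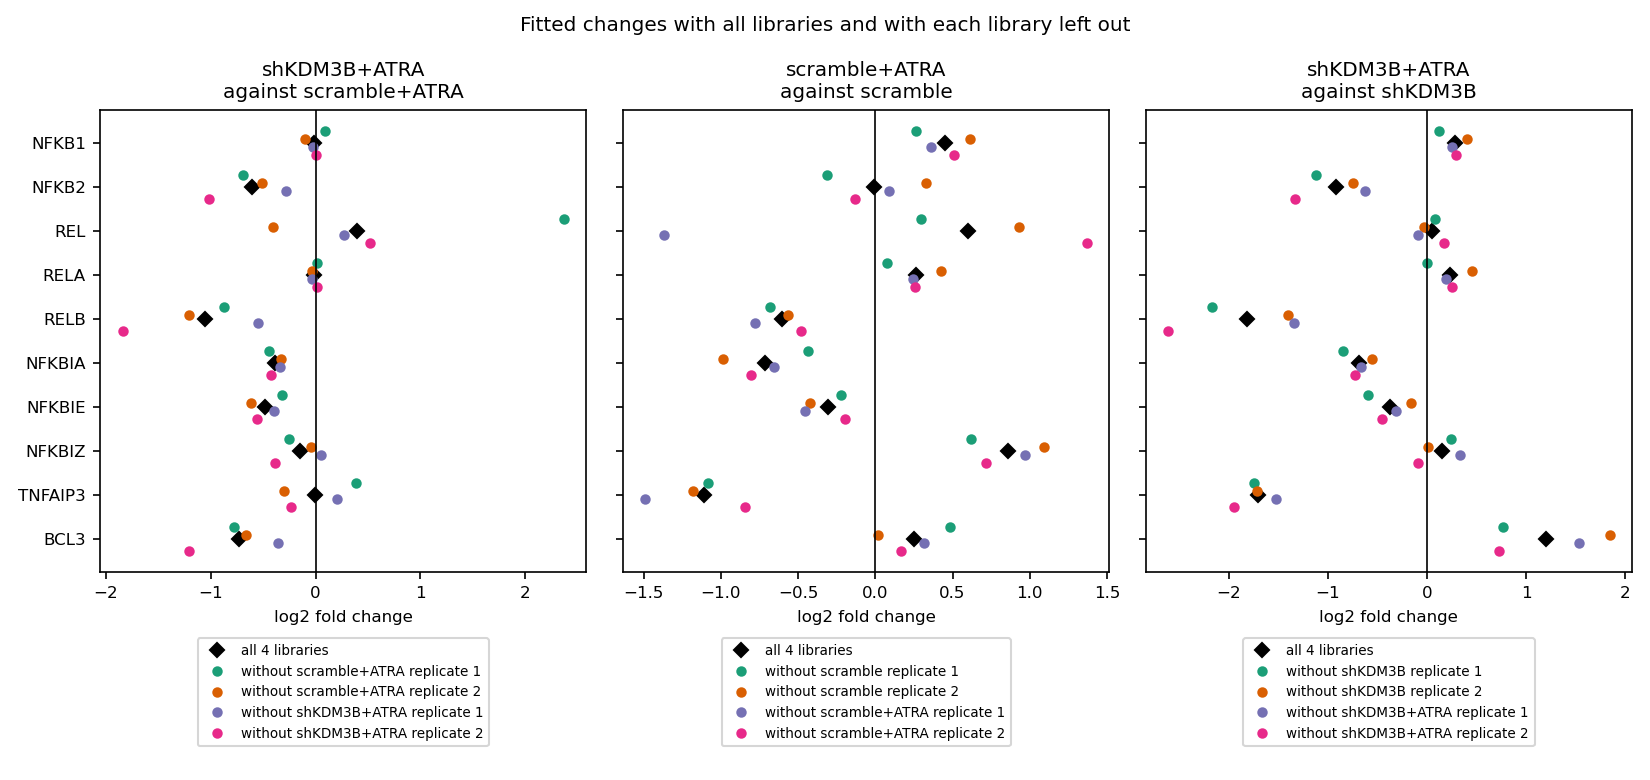
For 3 comparisons, the fitted log2 fold change (x axis) of each member (y axis) is drawn with all 4 libraries (diamonds) and with each library left out (colored points). REL moved from -0.40 to 2.37 in shKDM3B+ATRA against scramble+ATRA and from -1.37 to 1.37 in scramble+ATRA against scramble, while TNFAIP3, RELB and NFKB2 stayed below 0 throughout in shKDM3B+ATRA against shKDM3B.

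Whether the response to ATRA differed between the lines was tested with an interaction term over all 8 libraries. No member passed in edgeR, none had P under 0.05, and DESeq2 called 0, where 3.99% of 13528 genes passed (1.27% as higher, 2.72% as lower). Over all genes these were 172 higher and 368 lower, or 234 and 279 with library size alone. The largest differences, as the log2 change in shKDM3B minus that in scramble cells, were -1.23 ± 0.64 SE for RELB, 0.95 ± 0.67 SE for BCL3, -0.93 ± 0.43 SE for NFKB2 and -0.73 ± 0.39 SE for NFKBIZ. All adjusted p were 1.00 when rounded. NFKBIA, which passed as lower with ATRA in both lines, had a difference of 0.02 ± 0.30 SE, and TNFAIP3 of -0.62 ± 0.40 SE. NFKB2 and RELB passed with ATRA in shKDM3B cells and not in scramble cells, and whether their responses differed depended on the fit. NFKB2 passed the interaction limits with the replicate block (-0.99), without the low-count filter (-0.93) and in 3 of the 8 fits with a library left out, over which it was at -1.34 to -0.58. These were the fits without scramble replicate 2, scramble+ATRA replicate 1 and shKDM3B+ATRA replicate 2. RELB passed in 2 of the 8 (-2.02 to -0.70), without scramble+ATRA replicate 2 or shKDM3B+ATRA replicate 2. TNFAIP3 passed in 1, without scramble+ATRA replicate 2 (-0.92, the other fits reaching -0.23), while BCL3 (0.47 to 1.62) and NFKBIZ (-0.99 to -0.49) passed in none. REL passed in 2 of the 8 in opposite directions, at 1.40 without scramble+ATRA replicate 1 and at -1.37 without replicate 2. Without scramble+ATRA replicate 2, the ATRA libraries left had 9.36% (scramble) and 51.45% and 51.05% (shKDM3B) of pairs outside genes. In that fit this share and the difference in response cannot be told apart.

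Ratios of counts within a library do not depend on scaling between libraries. They restate the member counts given above, and how often other gene pairs separate the groups was not computed. The counts of the inhibitor NFKBIA per count of RELA were 0.840 and 0.452 in scramble, 0.492 and 0.439 in shKDM3B, 0.298 and 0.335 in scramble+ATRA, and 0.234 and 0.255 in shKDM3B+ATRA cells. All 4 ATRA libraries lay below all 4 untreated libraries, and within ATRA the knockdown libraries were the lower ones. The ratio of RELB to RELA was 0.0944 and 0.0805, then 0.0841 and 0.104, then 0.0520 and 0.0427, and last 0.0131 and 0.0332 in the same order of groups, with the same ordering of treated under untreated. The ratio of NFKB2 to NFKB1 was 0.351 to 0.450 over the untreated libraries, 0.253 and 0.326 in scramble+ATRA and 0.142 and 0.240 in shKDM3B+ATRA cells. TNFAIP3 per count of NFKBIA was 0.657 and 0.547 in shKDM3B cells and 0.165 to 0.351 in the other 6 libraries. The untreated knockdown libraries thus stood above all others in that ratio. BCL3 per count of NFKBIZ was 0.0579 and 0.145 in shKDM3B cells and 0.175 to 0.654 elsewhere, so that the same libraries stood below all others. REL per count of RELA gave no such order with ATRA. It was 0.0896 and 0.109 in scramble, 0.237 and 0.159 in shKDM3B, 0.218 and 0.0330 in scramble+ATRA and 0.181 and 0.157 in shKDM3B+ATRA cells.

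The genes around the members were taken from lists by role. Their counts stand against the shares of all genes that passed, which were 15.0% as higher and 10.8% as lower with ATRA in scramble cells, and 24.0% and 18.3% in shKDM3B cells. With knockdown they were 3.48% and 3.53% without ATRA, and 2.42% and 4.37% under ATRA. Of 17 other inhibitors and negative regulators tested, 0 passed with knockdown in untreated cells and 1 under ATRA, NFKBID (IκBNS, a further atypical IκB; log2 -1.15), which did not pass without either shKDM3B+ATRA library. With ATRA in scramble cells 4 passed as higher, led by NFKBID (1.10) and CYLD (1.05), a deubiquitinase that opposes IKK activation, and TRAF3 passed as lower (-0.85). With a library left out, CYLD passed in 4 of 4 fits, TRAF3 in 2 and NFKBID in 1, and the number higher was 1 to 4. With ATRA in shKDM3B cells 4 passed as higher, led by PDLIM2 (1.01) and RNF11 (1.00), and TRAF3 (-1.13) and NFKBIB (-1.11), which encodes IκBβ, passed as lower. The share higher, 4 of 17, was near that of all genes. The median log2 values of this list were between -0.14 and 0.13 in the 4 comparisons.

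Of 17 IKK subunits and upstream kinases, 0 passed with knockdown in either setting. With ATRA in scramble cells 5 were higher, led by IRAK2 (log2 2.05, from 23 and 20 counts to 66 and 44) and IKBKG (0.92), the regulatory IKK subunit NEMO. IRAK2 passed in 4 of 4 fits with a library left out and IKBKG in 1 (0.34 to 1.32), and the number higher was 1 to 5. In shKDM3B cells 4 of 17 were higher, near the share of all genes, led by IKBKG (1.49) and IRAK4 (1.26). IKBKE was lower (-0.72, or -0.89 to -0.57 with a library left out). MAP3K14, the NIK kinase of the noncanonical pathway, passed as lower in both lines (-0.87 and -0.69), in each line in 1 of 4 fits with a library left out. Of 20 adaptors and ubiquitin ligases tested with ATRA, the same 3 were higher in both lines. These were BIRC2, CARD9 and MYD88, the adaptor of Toll-like receptors (1.36 in scramble and 1.15 in shKDM3B cells). TRAF5 was lower in both (-1.52 and -1.62), with 40 and 20 counts in scramble+ATRA and 11 and 11 in shKDM3B+ATRA cells. It was also lower with knockdown in untreated cells (-0.80). The last call was lost without scramble replicate 1 and without shKDM3B replicate 1 (-1.10 to -0.58 over 4 fits). The 3 of 20 were no larger a share than that of all genes in either line. In scramble cells CARD9 passed in 1 of 4 fits with a library left out and MYD88 in 4. The interaction passed for IRAK2 (-1.82) and IKBKE (-0.63) and for no adaptor, in 3 and 4 of the 8 fits with a library left out. IRAK2 rested on 36 and 44 counts in shKDM3B and on 9 and 27 in shKDM3B+ATRA cells.

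Target genes are the transcriptional output of the pathway. Of 30 in the list, 19 to 21 passed the low-count filter, and TNF, LTB, IER3, CCL4 and VCAM1 were listed at 0 counts in all 8 libraries. With knockdown in untreated cells, CXCL8 (log2 1.52) passed as higher and 6 genes as lower, led by CCL2 (-5.41, or -7.21 to -4.08 with a library left out) and BCL2A1 (-1.27, or -1.56 to -0.90), an antiapoptotic BCL2 relative. CCL2 was at 62.4 and 15.0 CPM in scramble cells and at 0.257 and 1.38 CPM in shKDM3B cells, the latter from 5 and 45 counts. With knockdown under ATRA, CCND1 (0.60) passed as higher and CCL2 (-2.32), BCL2A1 (-1.33) and NINJ1 as lower. With a library left out, CXCL8, CCL2 and BCL2A1 kept these calls in 4 of 4 fits and CCND1 in 1 (0.53 to 0.66), while the number lower was 2 to 7 in each setting. With all libraries, these calls had adjusted p of 0.10 or more in edgeR. In DESeq2, CXCL8 (adjusted p = 3.87e-06), CCL2 (0.00473) and IRF1 (0.0414) were under 0.05 without ATRA, and CCL2 (0.00518), BCL2A1 (0.00432) and CCND1 (0.00211) under ATRA.

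With ATRA, 10 of 20 target genes were higher and 4 lower in scramble cells, and 10 of 20 were higher and 5 lower in shKDM3B cells. The shares of all genes were 15.0% and 10.8% in the former and 24.0% and 18.3% in the latter. With a library left out, 9 or 10 were higher and 2 to 7 lower in scramble cells, and 9 to 11 higher and 3 to 5 lower in shKDM3B cells. BCL2A1 led in scramble cells (log2 5.76, adjusted p = 1.4e-04), followed by CCL2 (3.97). CCL2 led in shKDM3B cells (7.04, adjusted p = 2.3e-05), though from 5 and 45 counts before ATRA (6.03 to 8.85 with a library left out). BCL2A1 followed there (5.71). F3, tissue factor, was lower in both (-3.43 and -2.33), and CXCL2 passed as lower with at most 2 counts in any ATRA library, so that no fold is given for it. The median of the list was 0.63 and 0.74, against 0.02 and 0.04 over all genes. CXCL8 was at 11.9 and 8.64 CPM in scramble and 77.8 and 192 CPM in scramble+ATRA cells, but at 27.1 and 31.9 CPM in shKDM3B and 21.7 and 82.2 CPM in shKDM3B+ATRA cells. The interaction passed for CXCL8 (-2.90 ± 0.90 SE), CCL2 (3.09) and F3 (1.08), each with an adjusted p of 1.00 in edgeR and of 0.0858, 0.788 and 0.550 in DESeq2. With a library left out they passed in 7, 5 and 5 of 8 fits, and were at -4.16 to -2.11, 1.74 to 4.92 and 0.79 to 1.35.

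Of 17 receptors upstream of the pathway, 10 were tested. With knockdown in untreated cells 3 of 10 passed as lower, against 3.53% of all genes. They were led by IL18R1 (log2 -1.29) and TLR4 (-1.14), the lipopolysaccharide receptor. Under ATRA TNFRSF1B passed as lower (-0.90), though not without either shKDM3B+ATRA library. With ATRA 3 of 10 were higher in scramble cells, against 15.0% of all genes. They were led by TNFRSF1B (3.16, from 20 and 19 counts before ATRA), the TNF receptor TNFR2, and TLR6 (1.16). TNFRSF1B passed in 4 of 4 fits with a library left out and TLR6 in 1 (0.63 to 1.52). In shKDM3B cells 4 of 10 were higher, against 24.0% of all genes, led by TNFRSF1B (3.21, from 10 and 14 counts before ATRA) and TLR4 (1.45). LTBR, which signals to the noncanonical pathway, was lower (-0.71). The interaction passed for TLR4 (0.90), in 6 of 8 fits with a library left out.

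The likeness of patterns was measured as the root mean square distance between log2 CPM values, each centered over the 8 libraries, among 13528 genes. Within the members, NFKB1 and RELA were the closest pair at 0.0957. NFKBIA and NFKBIE were each other's nearest member at 0.228. RELB was nearest to NFKB2 at 0.49, compared with its own spread of 0.838 over libraries. Over all genes, the nearest were TRAK1 for NFKB1 (0.062), RAE1 for NFKBIE (0.0591) and ILKAP for NFKBIA (0.119). MGME1 was nearest to NFKBIZ (0.135), SLC25A1 to NFKB2 (0.142) and DGKD to TNFAIP3 (0.167). CDC20P1 was nearest to RELB (0.222), IFI16 to BCL3 (0.248) and ABCB11 to REL (0.311). For REL, BCL3, TNFAIP3 and RELB no other member was nearer than 0.49.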

How the data were processed

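RNA-seq was made from total RNA of NB4 cells with a TruSeq kit in 8 libraries, 2 per group. The authors aligned reads to hg38 with HISAT2 and counted them on genes with HTSeq, per the study's methods and the submitters' processing notes, and deposited raw counts per gene without normalization. HTSeq's 5 summary lines (29.8% to 62.2% of pairs) were left out of library sizes. Untreated and treated files were joined on the 37526 names both list, which held 96.4% to 99.2% of counted pairs. Depth was 9708739 to 33017787 counted pairs per library.

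Each pair of groups was fitted alone with edgeR 4.0.16 in R 4.3.3 (filterByExpr, TMM, quasi-likelihood F test, Benjamini-Hochberg adjustment over all genes of the fit), and the interaction over all 8 libraries. A gene was called at P under 0.05 and at least 1.5-fold. SE is the absolute log2 fold change divided by the square root of F. Printed CPM levels use TMM factors of the 8 libraries over 13528 genes. With 2 against 2 libraries, an exact two-sided permutation test cannot go below 0.333, so none was used. Alternatives were DESeq2 1.42.0, its size factors, library size alone, no low-count filter, adjusted p, the replicate block, a fit over all 8 libraries and leaving out each library. A fit with a library left out has 1 library in that group, so its spread, and any call in it, rests on the other groups. The scripts were tested on simulated counts. The members and all lists were chosen with earlier results of these data known. The genes named are all 10 members, KDM3B, for each list and comparison the called genes with the 2 largest rises and 2 largest falls, and the gene nearest to each member. The gene nearest to RELA is not reported here. NINJ1, CARD9 and CXCL8 were also named, as were genes listed at 0, after their values were seen. Promoter sequences are from RefSeq (GRCh38.p14), gene models from GENCODE v44, and motifs were searched with Python 3.11.15.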

Additional observations from a re-analysis of the deposited data

Results flagged for a closer look

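In 3 of the 8 libraries, the HTSeq summary line of pairs outside genes, which no comparison used, was far above that in the untreated control libraries (8.83% and 9.28% of uniquely aligned pairs). Replicate 2 of scramble+ATRA had a share of 50.02%, against 9.36% in its replicate 1. The 2 libraries of shKDM3B+ATRA had 51.45% (replicate 1) and 51.05% (replicate 2). Among the members, the lowest REL level of all 8 libraries (34 counts) was in the first of these, and the lowest RELB levels (12 and 31 counts) in the other 2. The part of this share in those values was not tested beyond the fits without each library.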

How the results depend on the processing

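In KDM3B knockdown without ATRA, 3 members were called, 0 with adjusted p, 1 with all 8 libraries in the fit, and 3 to 5 with each library left out. Under ATRA the knockdown called 0, and 0 to 2 with each library left out. For ATRA in scramble cells the count was 3, 0 with adjusted p and 0 to 4 with each library left out. For ATRA in shKDM3B cells it was 5 and stayed at 4 or 5. The interaction called 0, 1 without the low-count filter (NFKB2), 1 with the replicate block (NFKB2) and 0 to 3 with each library left out.

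In the alternatives that left out no library, the values that changed sign were near 0. With a library left out, larger values changed sign as well, the largest in REL. With library size alone, NFKB1 was at 0.014, RELA at 0.017 and TNFAIP3 at 0.022 for shKDM3B+ATRA against scramble+ATRA, and RELA at 0.028 in the interaction. DESeq2 size factors put TNFAIP3 at 0.00079 in the former. With all 8 libraries REL was at -0.0042 for shKDM3B+ATRA against shKDM3B. Leaving out each library gave -0.20 to 0.22 for RELA and -0.25 to 0.48 for RELB for shKDM3B against scramble. For shKDM3B+ATRA against scramble+ATRA it gave -0.10 to 0.087 for NFKB1, -0.40 to 2.37 for REL, -0.037 to 0.016 for RELA, -0.39 to 0.055 for NFKBIZ and -0.30 to 0.39 for TNFAIP3. For scramble+ATRA against scramble it gave -0.31 to 0.33 for NFKB2 and -1.37 to 1.37 for REL. For shKDM3B+ATRA against shKDM3B it gave -0.094 to 0.17 for REL, -0.0047 to 0.46 for RELA and -0.090 to 0.33 for NFKBIZ. In the interaction it gave -1.37 to 1.40 for REL, -0.23 to 0.23 for RELA, -0.29 to 0.27 for NFKBIA and -0.26 to 0.18 for NFKBIE. The causes were not tested. Of the 240 values with a library left out, 183 kept their direction and side of the limits, and of the 340 others 318 did so.

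The replicates share only a number. Same-numbered libraries deviated together with correlations of 0.383, 0.0219, -0.0652 and 0.19 in the 4 comparisons (11690 genes). With the replicate block, shKDM3B against scramble kept REL, TNFAIP3 and BCL3, scramble+ATRA against scramble lost NFKBIA and moved NFKB2 to 0.025, and TNFAIP3 was at 0.023 for shKDM3B+ATRA against scramble+ATRA.

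Counts over all genes moved by more than 1.5 times as follows. For knockdown without ATRA, 971 became 3 with adjusted p (278 genes had adjusted p under 0.05 in DESeq2, 566 in edgeR without the filter and 1277 with the block) and 1650 without scramble replicate 2. For knockdown under ATRA, 969 became 0 with adjusted p (464 genes had adjusted p under 0.05 in DESeq2, and 1383 an unadjusted P under 0.05 in edgeR), 525 with the block and 134 to 5360 with a library left out. For ATRA in scramble cells, 3213 became 1604 with adjusted p and 1462 to 5142 with a library left out. For the interaction, 540 became 0 with adjusted p (25 in DESeq2, and 607 at an unadjusted P under 0.05 in edgeR), 941 without the filter and 285 to 2432 with a library left out. BCL3, RELB and REL rested on under 50 counts in some libraries, which limits their precision. The same held for genes of the lists such as IRAK2, TRAF5, TNFRSF1B and CCL2.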

Other observations

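Among the members and groups, the widest gap between replicates was that of REL in scramble+ATRA (2.72 on the log2 scale, median of all genes 0.38), followed by RELB in shKDM3B+ATRA (1.23, median 0.16) and BCL3 in shKDM3B (0.93, median 0.22). Gaps at least as wide were found in 5.99%, 3.73% and 5.17% of genes of the same group. The narrowest were TNFAIP3 in shKDM3B (0.021) and NFKB1 in shKDM3B+ATRA (0.026).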
